A study of Mus musculus with 13 samples.

Results

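The genes described here are the Notch receptors Notch1, Notch2 and Notch3, the ligands Jag1, Jag2, Dll1, Dll3 and Dll4, and the target genes Hes1 and Hes5, 10 of the 53653 gene symbols in the deposited count table. They were chosen by symbol from knowledge of the pathway, with earlier results of these data known. Counts of called genes are therefore set beside the share of all genes as a description, not as a test of the set. All 10 had counts high enough to be tested. Levels are given as TMM-scaled CPM, each gene's count over the scaled total of its library. The genes were read in 13 RNA-seq libraries, each made from sorted GFP-positive tumour cells of mice with medulloblastoma, a tumour of the cerebellum.

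Notch signalling works between cells in contact. A ligand on the neighbouring cell pulls on the receptor, proteases release the receptor's intracellular part, and this part enters the nucleus, joins the DNA-binding protein RBPJ and switches on genes of the Hes and Hey families, whose products repress genes of neuronal differentiation. In the cerebellum, Notch2 and its ligand Jag1 are known for holding granule cell precursors, the cells from which Sonic Hedgehog medulloblastoma arises, in a dividing state.

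All tumours carried SmoM2, an active form of Smoothened that turns on the Hedgehog pathway. KO metastasis comprised 4 libraries from spinal cord metastases and KO primary 4 libraries from cerebellar tumours, both with the genotype SmoM2 overexpression, Kmt2d KO (SmoM2-Kmt2dCf/Cf animals of 5 to 8 weeks, replicates 3, 4, 6 and 7 in each). Control primary comprised 5 libraries from cerebellar tumours with SmoM2 overexpression alone (animals of 6 to 16 weeks, replicates 3 to 7), so the age ranges overlap in part only, and age and genotype cannot be told apart. Kmt2d codes for a histone H3 lysine 4 methyltransferase. The labels name no Cre driver and do not say which libraries share an animal. The p-values below therefore measure the spread between these libraries, which may be technical in part. There were no metastases with intact Kmt2d among the samples analysed here, so in metastases the site and the genotype cannot be told apart against control primary.

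Total counts were 23.5 to 41.4 M a library. Primary tumour libraries are labelled as granule cell precursors and metastasis libraries as spinal metastasis. Of the markers of granule cell precursors, Atoh1 was at 309 to 861 CPM and Barhl1 at 531 CPM or more in every library. Kmt2d itself was at 105 to 131 CPM in KO metastasis, 91.7 to 168 CPM in KO primary and 78.1 to 175 CPM in control primary libraries, a whole-gene count that cannot show whether a stretch of the gene is missing. Olfactory and vomeronasal receptor genes, best known from sensory neurons of the nose, drew 332 to 1679 CPM in 4 libraries (KO metastasis 6 and 7, KO primary 7 and control primary 3) and 5.59 to 81.3 CPM in the other 9. These 4 are called high-receptor libraries, and results that rest on them are given with and without them. Xist reached 324 to 509.5 CPM in replicates 5, 6 and 7 of the controls and was at most 1.02 CPM in the other 10, so sex was mixed in the controls and the same in all knockout libraries. A fit with Xist presence as a covariate, like a fit without the controls with Xist, therefore sets the knockout groups against control primary 3 and 4. These fits are not separate checks.

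The promoters of 3 members are shown first, because Jag1 and Dll4 are the ligands that changed and Hes5 is a textbook Notch target with a known RBPJ site at its promoter. RefSeq (build GRCm38.p6) gave a start for 9 of the 10 members, with Hes1 not among them. The 250 bases before each start were searched on both strands for TGGGAA, the core bound by RBPJ, for CACNAG, the box bound by Hes proteins, and for CACGTG, the E box. The core TGGGAA stood in the Hes5 window alone of the 10 windows of these genes (Dll1 has 2 annotated starts), against 21.6% of all 32851 promoter windows. It stood there in 2 copies that face opposite ways, beginning 226 and 82 bases before the start. CACNAG stood in the windows of Notch1, Notch2, Notch3 and Dll4, against 36.7% of all windows. CACGTG stood in no member window, against 6.02% of all. In the 3 windows printed here no match overlapped another. Capitals mark the matches, and bases inside the annotated gene were left out. A match is a description of the letters and no evidence of binding.
Hes5 promoter (chr4:154960673-154960922, plus strand): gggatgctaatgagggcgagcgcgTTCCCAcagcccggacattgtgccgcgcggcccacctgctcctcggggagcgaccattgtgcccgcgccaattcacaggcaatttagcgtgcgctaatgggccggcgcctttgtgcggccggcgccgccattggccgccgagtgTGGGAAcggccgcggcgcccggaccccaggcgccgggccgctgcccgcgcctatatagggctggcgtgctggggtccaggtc
Dll4 promoter (chr2:119325534-119325783, plus strand): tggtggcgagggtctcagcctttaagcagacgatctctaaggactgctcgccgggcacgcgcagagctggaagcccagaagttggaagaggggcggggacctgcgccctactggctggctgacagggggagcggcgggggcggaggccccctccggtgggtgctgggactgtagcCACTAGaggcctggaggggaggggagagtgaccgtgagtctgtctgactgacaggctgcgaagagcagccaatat
Jag1 promoter (chr2:137116645-137116770, minus strand): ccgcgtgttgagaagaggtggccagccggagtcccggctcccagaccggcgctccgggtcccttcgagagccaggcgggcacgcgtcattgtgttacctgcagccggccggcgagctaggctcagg

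Kmt2d KO primary tumours had more Jag1 and Hes1 message and less Dll4 message than control primary tumours. In KO primary against control primary tumours, 3 of the 10 genes passed the threshold (edgeR adjusted p below 0.05), against 2.93% of the 22265 genes tested. Jag1 and Hes1 were higher, against 1.15% of all genes, and Dll4 was lower, against 1.78%. KO metastasis against control primary gave the same 3 genes, against 3.08% of all genes, with 2 higher (1.06% of all) and 1 lower (2.02%). With no adjustment, 6 of the 10 genes in KO primary, against 13.6% of all, and 5 in KO metastasis, against 14.2%, had p below 0.05. Both comparisons share the control libraries. The groups did not overlap for 3 of the 10 genes in KO primary against control primary (Notch2, Jag1 and Dll4), against 7.42% of all genes, and for 3 in KO metastasis against control primary (Jag1, Dll4 and Hes1), against 6.82%. Between KO metastasis and KO primary none of the 10 passed the threshold, against 0.00449% of all genes, that is 1 gene. The median log2 change of the 10 genes was 0.46 in KO primary against control primary, 0.32 in KO metastasis against control primary and -0.011 in KO metastasis against KO primary, beside -0.053, -0.039 and -0.0038 over all genes tested. In bulk libraries, fewer cells that express a gene and less RNA per cell cannot be told apart.

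**Figure D1:**
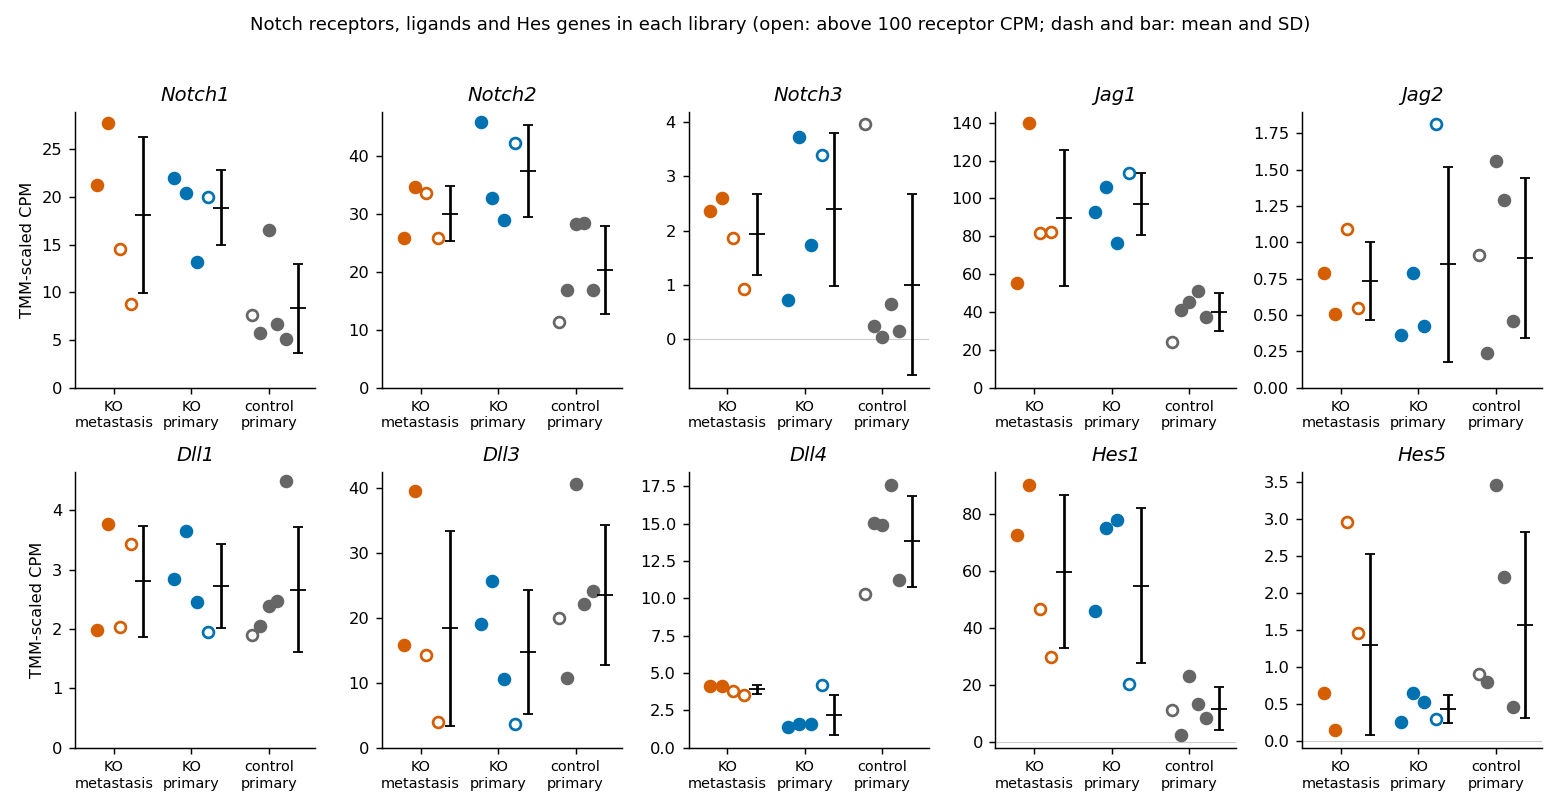
TMM-scaled CPM of each gene in each library, by group, with the mean and SD at the right of each group and the high-receptor libraries as open circles. Jag1 and Dll4 in the knockout groups do not overlap the control libraries, and Hes1 in KO primary reaches into them through KO primary 7 alone.

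Of Notch1, Notch2 and Notch3, Notch2 had the most message per length of exon in every library. It is encoded on chromosome 3 (98013527 to 98150361, plus strand) and is the receptor best known from granule cell precursors. Per kilobase of exon it was at 2.78 ± 0.442 CPM in KO metastasis (SD, n = 4), 3.47 ± 0.733 in KO primary (n = 4) and 1.88 ± 0.705 in control primary (n = 5). Notch1 (chromosome 2, 26457903 to 26516663, minus strand), which many progenitor and vascular cells use, was at 1.27 ± 0.576, 1.33 ± 0.276 and 0.584 ± 0.328 CPM per kilobase in the same 3 groups. Of the summed message of the 3 receptors, Notch2 made up 65.95 ± 9.53% in KO metastasis, 68.0 ± 4.62% in KO primary and 72.3 ± 13.2% in control primary.

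In CPM, Notch2 was at 25.8, 34.5, 33.6 and 25.9 in KO metastasis 3, 4, 6 and 7, at 45.8, 32.7, 28.9 and 42.1 in KO primary 3, 4, 6 and 7, and at 11.3, 16.8, 28.1, 28.4 and 16.8 in control primary 3 to 7. All 4 KO primary libraries were above all 5 controls, by a narrow margin over control primary 5 and 6. The log2 change of 0.88 in KO primary against control primary (SE 0.25, 95% interval 0.34 to 1.43) did not pass the threshold (edgeR adjusted p = 0.0869), nor did that of 0.56 in KO metastasis (SE 0.25, adjusted p = 0.331). DESeq2 called Notch2 higher in KO primary (adjusted p = 0.0151), and so did the edgeR fit with Xist presence as a covariate. No other alternative fit called it.

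Notch1 was at 21.2, 27.7, 14.5 and 8.80 CPM in KO metastasis libraries, at 22.03, 20.4, 13.1 and 19.96 CPM in KO primary libraries, and at 7.64, 5.75, 16.5, 6.63 and 5.06 CPM in control primary libraries, each in replicate order. Control primary 5 stood apart within its group and overlapped both knockout groups. The log2 change was 1.19 in KO primary (SE 0.37, edgeR adjusted p = 0.124) and 1.12 in KO metastasis (SE 0.37, adjusted p = 0.145) against control primary. Without control primary 5 the changes were 1.58 and 1.56, with edgeR adjusted p = 0.0176 and 0.0198, and DESeq2 on all libraries gave 0.0342 and 0.0473. The call for Notch1 thus turns on 1 control library and on the tool.

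Notch3 (chromosome 17, 32120820 to 32166852, minus strand), best known from mural cells and radial glia, had the least message per length of the 3 receptors in every library. It was at 2.37, 2.599, 1.86 and 0.921 CPM in KO metastasis libraries and at 0.729, 3.73, 1.75 and 3.39 CPM in KO primary libraries. Controls 4 to 7 had only 0.237, 0.0380, 0.644 and 0.161 CPM, but in control primary 3, the library with the most receptor-gene counts, it was at 3.96 CPM. Per kilobase that is 0.489 CPM for Notch3, beside 0.262 CPM per kilobase over the olfactory and vomeronasal receptor genes of the same library. With all libraries the log2 change was 1.26 in KO primary (SE 0.95, edgeR adjusted p = 0.702) and 0.95 in KO metastasis (SE 0.95, adjusted p = 0.81). Without control primary 3 it was 3.13 and 2.83 (edgeR adjusted p = 0.0254 and 0.0353). Without all 4 high-receptor libraries it was 2.92 and 3.19 (adjusted p = 0.0421 and 0.0429). Mural cell markers as a list of 7 summed to 13.5 to 15.5 CPM in KO metastasis, 20.5 to 37.4 CPM in KO primary and 16.7 to 27.7 CPM in control primary libraries. Of the 6 of these that could be tested, 2 were called higher in KO primary against control primary, beside 1.15% of all genes. In KO metastasis against control primary 1 was called lower, beside 2.02% of all genes. The potassium channel genes Kcnj8 and Abcc9 had medians of 6.15 and 9.87 CPM in KO primary, against 1.27 and 2.395 CPM in control primary (edgeR adjusted p = 0.0199 and 0.0196). Cspg4, which oligodendrocyte precursors also express, had a median of 4.09 CPM in KO metastasis, against 16.2 CPM in control primary (edgeR adjusted p = 0.00508). In KO primary the median of Cspg4 was 7.27 CPM, also below the controls but not called, so the list moved in both directions there. The receptor gene Pdgfrb was at 0 counts in 1 KO metastasis, 3 KO primary and 1 control primary libraries and reached 4.07 CPM in a control. The part of these cells in the Notch3 level was not tested.

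**Figure D2:**
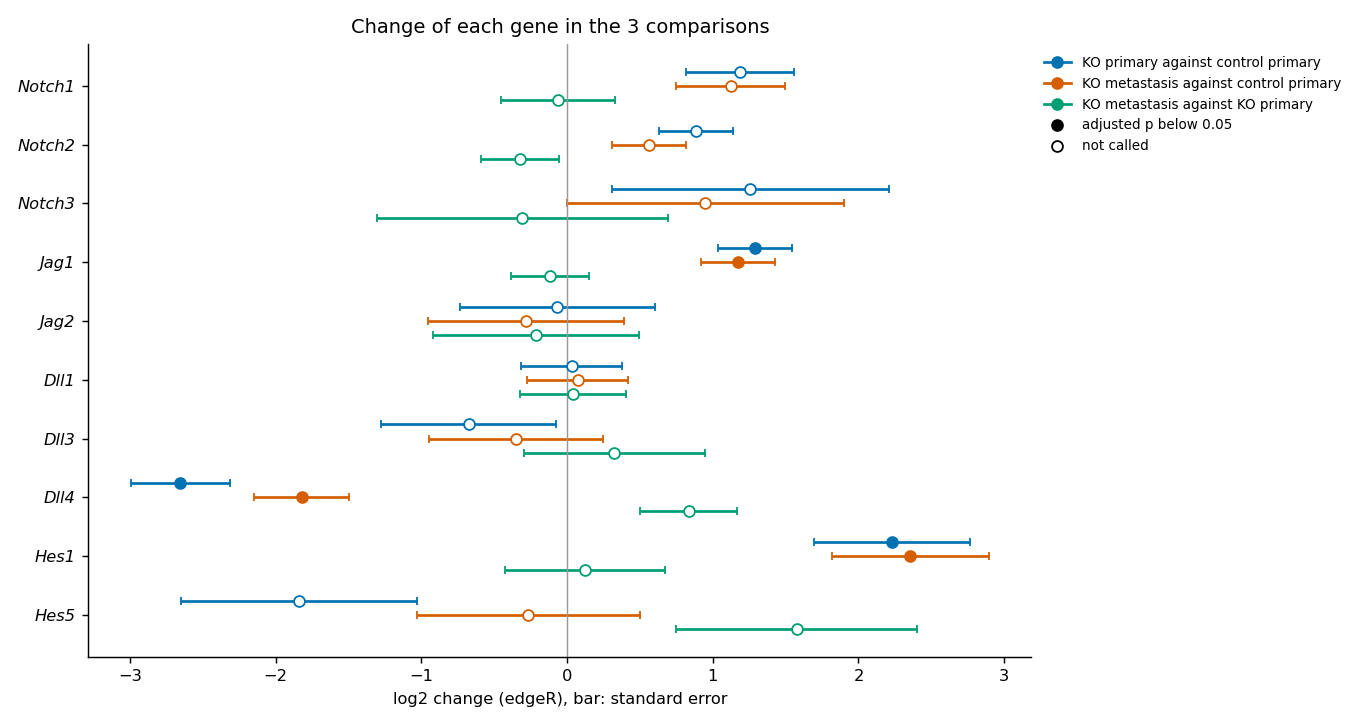
The log2 change of each gene (horizontal axis) with its standard error in the 3 comparisons, filled where the edgeR adjusted p is below 0.05. Jag1 and Hes1 lie right of 0 and Dll4 left of 0 in both comparisons with the controls, and no gene is filled for KO metastasis against KO primary.

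Jag1, a ligand of the Serrate type (chromosome 2, 137081456 to 137116644, minus strand), had the most message per length of the 5 ligands described here in all 8 knockout libraries. It was at 55.1, 139.9, 81.5 and 82.1 CPM in KO metastasis 3, 4, 6 and 7, and at 92.6, 106, 76.5 and 113 CPM in KO primary 3, 4, 6 and 7. The 5 controls, replicates 3 to 7, had 24.2, 41.2, 45.4, 50.8 and 37.3 CPM. Every knockout library was above every control, with KO metastasis 3 nearest to them. Jag1 was 2.44-fold higher in KO primary than in the controls (log2 change 1.29, SE 0.25, edgeR adjusted p = 0.014). It was 2.25-fold higher in KO metastasis (log2 change 1.17, SE 0.25, edgeR adjusted p = 0.0229). Without the high-receptor libraries the changes were 1.08 and 1.18, both still called (adjusted p = 0.0332 and 0.0398). Its call in KO primary was lost without KO primary 4 (adjusted p = 0.0615), and that in KO metastasis without KO metastasis 4 (0.0716), control primary 4 (0.0554) or control primary 7 (0.0607). Against only control primary 3 and 4, the controls low in Xist, of which the first is a high-receptor library, Jag1 had log2 changes of 1.58 and 1.51 and was not called (edgeR adjusted p = 0.135 and 0.171). With Xist presence as a covariate the call was kept in KO primary (adjusted p = 0.0422) and lost in KO metastasis (0.0582).

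Dll4, a Delta ligand best known from the tips of growing vessels (chromosome 2, 119325784 to 119335962, plus strand), moved the other way. It was at 4.13, 4.14, 3.83 and 3.54 CPM in KO metastasis 3, 4, 6 and 7, and at 1.41, 1.58, 1.59 and 4.20 CPM in KO primary 3, 4, 6 and 7. The 5 controls, replicates 3 to 7, had 10.3, 15.05, 14.9, 17.6 and 11.2 CPM. The controls were above every knockout library, and KO primary 7, a high-receptor library, stood apart from the other KO primary libraries. Dll4 was 6.29-fold lower in KO primary than in the controls (log2 change -2.65, SE 0.34, edgeR adjusted p = 8.86e-04). It was 3.53-fold lower in KO metastasis (log2 change -1.82, SE 0.33, edgeR adjusted p = 0.00762). Both calls held in all 13 fits that left out 1 library, with edgeR adjusted p of at most 0.00700 in KO primary and 0.0286 in KO metastasis. Without the high-receptor libraries the log2 changes were -3.25 and -1.82 (adjusted p = 1.55e-04 and 0.00668). Against only control primary 3 and 4, the fall in KO primary was still called (adjusted p = 0.0335) and that in KO metastasis was not (0.203). With Xist presence as a covariate the edgeR adjusted p was 0.00776 in KO primary and 0.0573 in KO metastasis.

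The Dll4 level was set beside markers of endothelial cells, its best known source. The 8 markers listed summed to 1.87 to 10.9 CPM in KO metastasis, 2.35 to 17.4 CPM in KO primary and 1.21 to 25.6 CPM in control primary libraries. In the 9 libraries that are not high-receptor, the sums were 1.87 to 2.78, 2.35 to 2.91 and 1.21 to 4.07 CPM in the same order, and the groups overlapped. None of the 8 was called in any of the 3 comparisons. The highest single values in the controls were 7.91 CPM for Pecam1, 6.31 CPM for Kdr and 4.53 CPM for Flt1, while the medians of all 8 in the controls were 0.646 CPM or less. Cldn5, Kdr, Tek, Flt1 and Esam each had 0 counts in 1 control library. The part of endothelial cells in the Dll4 level was not tested.

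Dll3, a divergent Delta protein that acts inside its own cell and does not activate receptors on neighbours (chromosome 7, 28293553 to 28302238, minus strand), varied widely within each group. It was at 15.8, 39.6, 14.4 and 4.03 CPM in KO metastasis, at 19.0, 25.7, 10.6 and 3.71 CPM in KO primary libraries, in replicate order. Control primary libraries had 19.97, 10.8, 40.6, 22.1 and 24.2 CPM. The groups overlapped throughout. Replicate 7 was the lowest library in both knockout groups. No comparison called Dll3 (log2 change -0.68 in KO primary, SE 0.60, and -0.35 in KO metastasis, SE 0.59, edgeR adjusted p = 0.789 and 0.932).

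Dll1, the Delta ligand of neural progenitors (chromosome 17, 15367354 to 15376872, minus strand), stayed between 1.90 and 4.49 CPM over all 13 libraries. Its log2 change in KO primary against control primary was 0.031 with a 95% interval of -0.72 to 0.78, which leaves room for changes within these bounds. Jag2, the second Serrate-type ligand (chromosome 12, 112907819 to 112929776, minus strand), was barely detected, between 0.237 and 1.82 CPM, and its log2 change of -0.069 in KO primary had an interval of -1.51 to 1.37. The edgeR adjusted p of both was above 0.96 in each comparison.

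The make-up of the ligand message differed between the knockout groups and the controls. Per kilobase of exon, Jag1 made up 66.5 ± 10.9% of the summed message of the 5 ligands in KO metastasis (range 56.8 to 81.4%), 72.6 ± 9.93% in KO primary (63.6 to 86.2%) and 35.6 ± 7.46% in control primary (28.8 to 46.2%). Dll4 made up 4.81 ± 1.57% in KO metastasis, 2.53 ± 1.58% in KO primary and 19.0 ± 4.48% in control primary. Dll3 made up 25.2 ± 12.2%, 21.5 ± 11.5% and 41.4 ± 11.4% in the same 3 groups. The ranges of the knockout groups and the controls were separate for Jag1 and Dll4 and overlapped for Dll3. These shares are descriptions of levels already tested gene by gene.

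**Figure D3:**
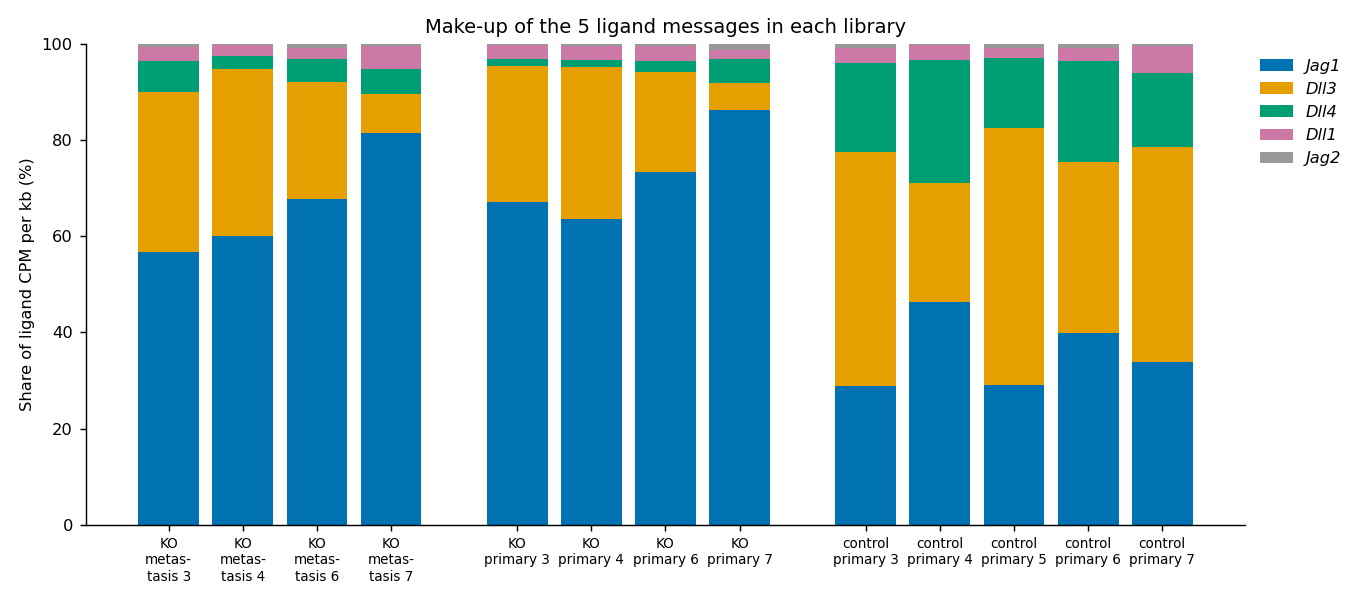
Share of each ligand (vertical axis, percent) in the summed CPM per kilobase of exon of the 5 ligands, 1 bar a library. Jag1 takes 56.8% or more in the knockout libraries and 46.2% or less in the controls, where Dll3 and Dll4 fill most of the rest.

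Hes1, a basic helix-loop-helix repressor that Notch switches on (chromosome 16, 30064384 to 30067796, plus strand), had the largest fitted rise of the 10 genes with all libraries included. It was at 72.6, 90.4, 46.7 and 30.0 CPM in KO metastasis 3, 4, 6 and 7, and at 46.1, 75.2, 78.2 and 20.2 CPM in KO primary 3, 4, 6 and 7. The 5 controls, replicates 3 to 7, had 11.2, 2.3995, 23.2, 13.3 and 8.48 CPM. All KO metastasis libraries were above all controls, while KO primary 7 fell below control primary 5. Hes1 was 4.70-fold higher in KO primary than in the controls (log2 change 2.23, SE 0.53, edgeR adjusted p = 0.0389). It was 5.12-fold higher in KO metastasis (log2 change 2.36, SE 0.54, edgeR adjusted p = 0.0288).

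The spread of Hes1 was wide, and the call was less firm than its size. With 1 library left out, the log2 change stayed between 1.97 and 2.65 in KO primary, but the call was lost without KO primary 3, 4 or 6 (edgeR adjusted p = 0.0876, 0.142 and 0.138) or control primary 4, 6 or 7 (0.0581, 0.0782 and 0.104). It was also lost without KO metastasis 3 or 6 (0.0571 and 0.0547). In KO metastasis the log2 change stayed between 2.10 and 2.79, and the call was lost without KO metastasis 3, 4 or 6 (0.0868, 0.0935 and 0.0515) or control primary 6 or 7 (0.0633 and 0.0781). Without the high-receptor libraries, the changes were 2.51 and 2.81 and both were called (adjusted p = 0.0171 and 0.0187). Against only control primary 3 and 4 they were 3.19 and 3.32 and not called (adjusted p = 0.113 and 0.108). With Xist presence as a covariate, which rests on the same controls, they were 3.02 and 3.15 and not called (adjusted p = 0.0708 and 0.0645).

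Hes5, a second repressor of the family (chromosome 4, 154960923 to 154962371, plus strand), was scarce and did not pass the threshold. It was at 0.646, 0.159, 2.95 and 1.47 CPM in KO metastasis, at 0.260, 0.653, 0.529 and 0.298 CPM in KO primary libraries. Control primary libraries had 0.913, 0.800, 3.46, 2.22 and 0.458 CPM. The groups overlapped, and the level was near the edge of what these depths measure, with 6 to 91 counts a library. The log2 change was -1.84 in KO primary (SE 0.81, edgeR adjusted p = 0.323) and -0.27 in KO metastasis (SE 0.77, adjusted p = 0.972).

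Per kilobase of exon, the order of the 10 genes changed between genotypes. In control primary Dll3 (8.26 ± 3.80 CPM per kilobase), Jag1 (6.83 ± 1.72), Hes1 (5.75 ± 3.74) and Dll4 (3.59 ± 0.785) led, and the ranges of neighbours in this order overlapped. In KO primary Hes1 (27.0 ± 13.4) and Jag1 (16.7 ± 2.79) led, and Dll4 (0.569 ± 0.348) stood beside Dll1 (0.646 ± 0.169). In KO metastasis Hes1 (29.4 ± 13.2) and Jag1 (15.4 ± 6.14) led likewise, with Dll4 at 1.01 ± 0.0741. The ranges of Hes1 and Jag1 overlapped in both knockout groups. Notch3 and Jag2 were last or next to last in all 3 groups.

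No member passed the threshold between spinal metastases and primary knockout tumours, and the intervals were wide. Jag1 had a log2 change of -0.12 in KO metastasis against KO primary (95% interval -0.69 to 0.46) and Hes1 of 0.13 (-1.05 to 1.31). These intervals leave room for changes of that size in either direction, so the groups are not shown to be alike. The smallest p among the 10 was that of Dll4, at 3.91 ± 0.286 CPM in KO metastasis against 2.19 ± 1.34 CPM in KO primary (log2 change 0.83, 95% interval 0.12 to 1.55, unadjusted p = 0.0255, edgeR adjusted p = 1). Without the high-receptor libraries Dll4 was at 4.13 and 4.14 CPM in KO metastasis 3 and 4, against 1.41, 1.58 and 1.59 CPM in KO primary 3, 4 and 6, a log2 change of 1.44 that was not called (adjusted p = 0.213). At an unadjusted p below 0.05 there was 1 of the 10 genes, against 3.23% of all genes, and DESeq2 also called none of the 10.

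In the 23 alternative fits Jag1 and Hes1 stayed above and Dll4 below the controls in both comparisons, and the size of the Notch3 change moved most with control primary 3.

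**Figure D4:**
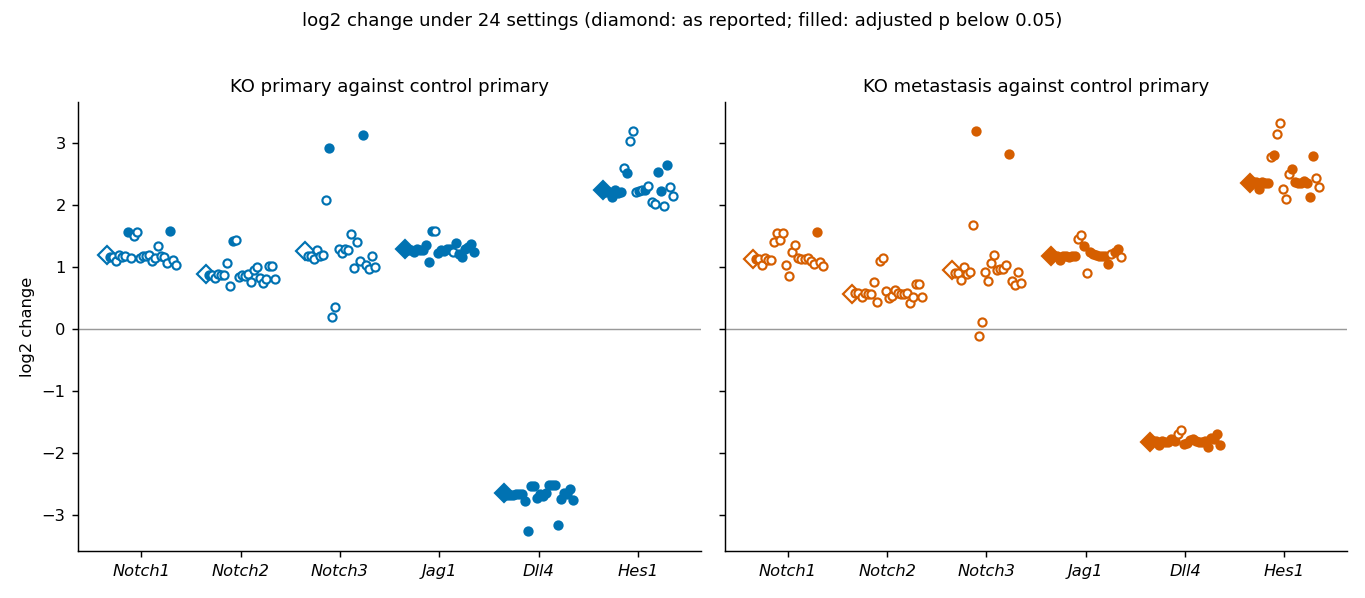
The log2 change (vertical axis) of 6 genes against control primary in KO primary (left) and KO metastasis (right) under the fit as reported (diamond) and 23 alternatives (circles), filled where the adjusted p is below 0.05. Dll4 lies below 0 throughout and is open in KO metastasis in the 2 alternatives on Xist, and Notch3 is filled, at 2.83 or above, where control primary 3 is left out alone or with the other high-receptor libraries.

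Of a list of 60 other genes of the pathway, chosen by role and also with earlier results of these data known, 57 could be tested. In KO primary against control primary 3 were lower, against 1.78% of all genes, none was higher, against 1.15%, and 54 were not called. The median log2 change of the list was 0.12. In KO metastasis against control primary 3 were likewise lower, against 2.02% of all genes, none was higher, against 1.06%, and 54 were not called, with a median of 0.093. In KO metastasis against KO primary none was called, against 0.00449% of all genes, and the median was -0.068.

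The genes that fell act at the cell surface or on the receptor. Contactin 1, encoded by Cntn1 and an adhesion protein of axons that can bind Notch, was at 7.12 ± 2.62 CPM in KO metastasis, 9.15 ± 3.68 CPM in KO primary and 34.3 ± 10.7 CPM in control primary. Its log2 change was -1.91 in KO primary (SE 0.33, edgeR adjusted p = 0.00689) and -2.27 in KO metastasis (SE 0.34, adjusted p = 0.00274). Dner, a neuronal Notch ligand without the usual binding domain, was at 88.5 ± 41.1 CPM in KO metastasis, 104 ± 30.1 CPM in KO primary and 242 ± 92.2 CPM in control primary. Dner was called in KO metastasis (log2 change -1.45, SE 0.35, edgeR adjusted p = 0.0377) and not in KO primary (log2 change -1.22, adjusted p = 0.0841).

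Numbl, whose product restrains Notch receptors, was at 66.8 ± 14.5 CPM in KO metastasis, 71.5 ± 13.6 CPM in KO primary and 129 ± 28.5 CPM in control primary. It fell by 0.95 in KO metastasis (edgeR adjusted p = 0.0198) and by 0.85 in KO primary (adjusted p = 0.0358) on the log2 scale. Mfng, a sugar transferase of the Fringe family that tunes which ligands a receptor answers to, was at 9.37 ± 2.89 CPM in KO primary, against 41.2 ± 26.8 CPM in control primary (log2 change -2.13, SE 0.47, edgeR adjusted p = 0.0257). In KO metastasis it was at 25.9 ± 14.6 CPM, and its log2 change of 1.46 against KO primary had the smallest p of the list (unadjusted p = 0.00869, edgeR adjusted p = 1). Lfng, another Fringe gene, came next in that comparison, at 56.5 ± 10.9 CPM in KO metastasis, against 77.8 ± 9.34 CPM in KO primary (log2 change -0.46, unadjusted p = 0.00928). The fall of Cntn1 was called in all 13 fits that left out 1 library in both comparisons. The calls of Numbl, Dner and Mfng were less stable in these fits. Of the 9 fits without 1 library of the groups compared, Numbl lost its call in 7 in KO primary and 6 in KO metastasis. Dner lost it in 6 in KO metastasis and Mfng in 3 in KO primary. Of the 10 other alternatives, Cntn1 was called in 8 in KO primary and in all 10 in KO metastasis. Mfng was called in 8 of them in KO primary, Numbl in 7 in each comparison and Dner in 7 in KO metastasis. Against only control primary 3 and 4, no list gene was called in KO primary and 1 was in KO metastasis.

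**Figure D5:**
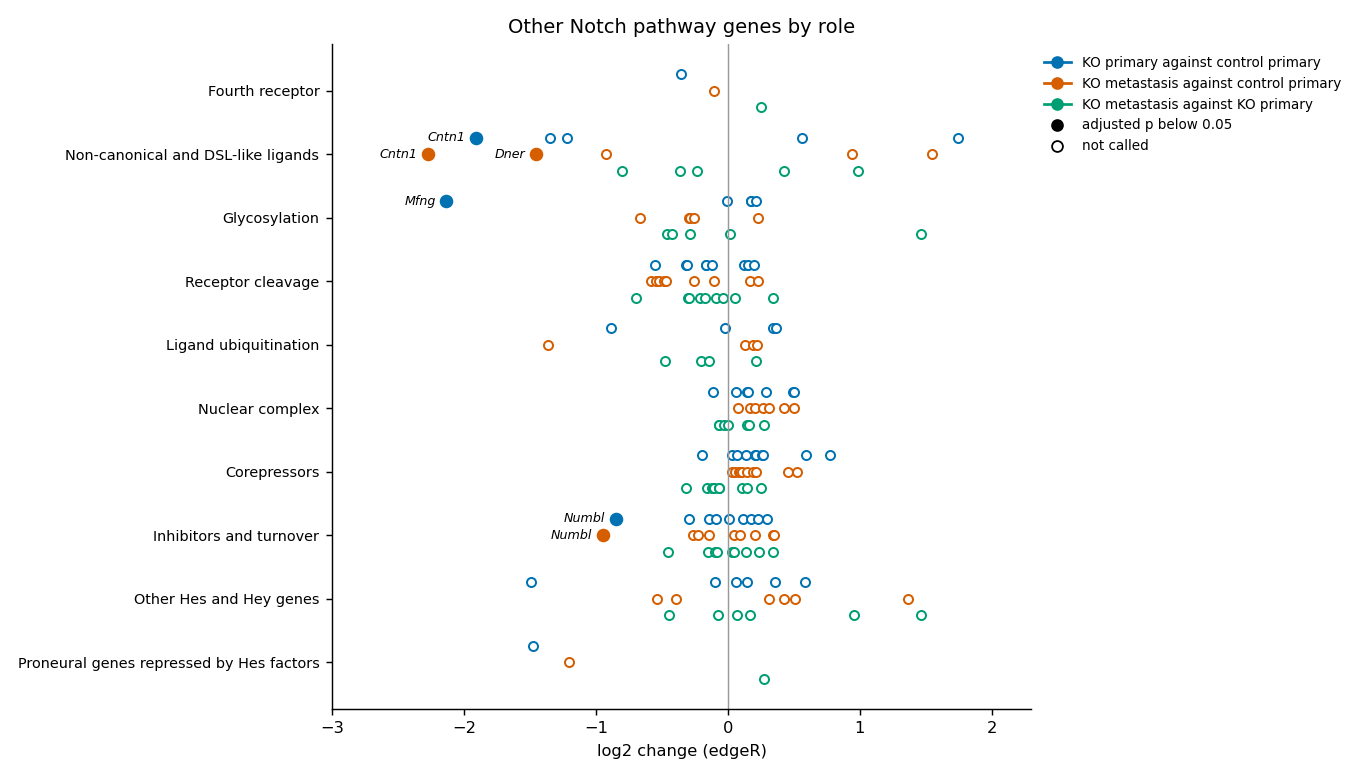
The log2 change (horizontal axis) of 57 other pathway genes by role in the 3 comparisons, filled and named where the edgeR adjusted p is below 0.05. Cntn1, Dner, Mfng and Numbl are the filled genes, all left of 0.

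The other nuclear effectors and targets gave no call. Rbpj was at 72.9 ± 17.3 CPM in KO metastasis, 66.1 ± 14.1 CPM in KO primary and 63.3 ± 15.7 CPM in control primary. Hey1, a Notch target related to Hes1, was at 231 ± 73.1, 316 ± 42.9 and 304 ± 33.3 CPM in the same groups, with a log2 change of 0.059 in KO primary against control primary (SE 0.20, edgeR adjusted p = 0.974). None of the 7 genes of the nuclear complex, the 10 corepressors or the 6 tested Hes and Hey genes was called in any comparison. Notch4, the fourth receptor, was at 4.20 ± 1.55, 3.53 ± 1.44 and 4.51 ± 2.49 CPM.

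Summed markers of granule cell precursors and of differentiating granule neurons also differed between the knockout groups and the controls. The 9 precursor markers listed summed to 3447 to 4517 CPM in KO metastasis, 3401 to 3972 CPM in KO primary and 2067 to 3061 CPM in control primary libraries, so both knockout groups were above the controls. Against control primary, 1 of the 9 was called higher in KO primary (Atoh1), against 1.15% of all genes. In KO metastasis 2 were called higher (Atoh1 and Barhl1), against 1.06%, and none was lower in either. Zic1 went the other way and was not called, with medians of 207 CPM in KO metastasis, 205 CPM in KO primary and 219 CPM in control primary. Every other precursor marker had a higher median in both knockout groups than in the controls, for Meis1 by little in KO metastasis (332 against 328 CPM). The 6 markers of differentiating neurons summed to 929.6 to 1663 CPM in KO metastasis, 846 to 964 CPM in KO primary and 1862 to 3108 CPM in control primary libraries. Of the 6, 5 were called lower in KO primary, against 1.78% of all genes, and 4 in KO metastasis, against 2.02%. Rbfox3 went the other way and was not called, with medians of 268 CPM in KO metastasis, 272 CPM in KO primary and 196 CPM in control primary. Markers of astrocytes and Bergmann glia, which use Notch2 and Hes1, summed to 779 to 1434 CPM in KO metastasis, 782 to 1286 CPM in KO primary and 702 to 916 CPM in control primary libraries over 9 genes, most of it Sox9 and the transporter genes Slc1a2 and Slc1a3. Without the high-receptor libraries the sums were 1116 to 1434 CPM in KO metastasis, 1122 to 1286 CPM in KO primary and 771 to 916 CPM in control primary. Both knockout groups were then above the controls. In KO primary, Sox9 was called higher and Aqp4 lower among these 9 against control primary. In KO metastasis 1 of the 9 was called higher and none lower. Markers of oligodendrocytes, cells of the spinal cord's white matter, summed to 159 to 1763 CPM over 6 genes in KO metastasis, against 50.6 to 80.1 CPM in KO primary and 120.9 to 310.4 CPM in control primary libraries. Without the high-receptor libraries these ranges were 159 to 301, 50.6 to 67.4 and 121 to 310 CPM in the same order. Markers of microglia and macrophages summed to 7.82 to 142 CPM over 7 genes in KO metastasis, 2.24 to 12.9 CPM in KO primary and 5.79 to 52.7 CPM in control primary libraries. Without the high-receptor libraries their range in KO metastasis was 7.82 to 24.3 CPM, and the other 2 ranges were unchanged. For both cell types KO metastasis then overlapped control primary. The part of these cell types in the changes of Jag1, Hes1, Dll4, Cntn1 and Dner was not tested.

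Genes whose pattern over the 13 libraries was most like that of each changed member are given as a description, since all 13 libraries share the group differences. Among 10371 genes of at least 5 CPM on average, log2 CPM of Prkd2 and Limd1 were among those that followed Jag1 most closely (Pearson r = 0.965 and 0.956). Pnpla3, Rcor2 and Tle2 followed Dll4 (r = 0.958, 0.944 and 0.939), and Tmem98 and S100a11 were among those that followed Hes1 (r = 0.953 and 0.937).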

How the data were processed

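The deposited values are unnormalised read counts, 1 row a gene symbol. The tools named per the submitters' processing notes are DESeq2, HTSeq 0.6.1 and STAR 2.4, with build mm10; their roles, the annotation release and any strand setting were not given in the sources used here. Notch1, Notch3, Dll1, Dll4 and Hes5 overlap a gene on the other strand, so their counts may include its reads. Per the labels' protocols, GFP-positive cells were sorted after papain dissociation and libraries made with a TruSeq RNA kit, from 0.1 to 3 M cells for metastases and 1 to 5 M for primary tumours.

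All 13 libraries were fitted in edgeR 4.0.16 (R 4.3.3) with filterByExpr (minimum count 10, minimum total 15), TMM scaling and quasi-likelihood F tests for 3 groups. Calls are Benjamini-Hochberg adjusted p below 0.05 over all genes. The standard error is the log2 change divided by the square root of F. Levels are TMM-scaled CPM, and per kilobase they use the union of GENCODE M21 exons (GRCm38), which also gave coordinates. The fit was tested on simulated counts. DESeq2 1.42.0, other scalings and filters, and fits without single libraries were alternatives. All 10 members and the genes called in the pathway list are named, with the smallest 2 by p where none was called. The members and lists were chosen with earlier results of these data known. Of the 3 genes most like each changed member, some are not reported here.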

Additional observations from a re-analysis of the deposited data

Results flagged for a closer look

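In 4 of the 30 groups of 4 or 5 libraries examined, 1 library stood far from the others relative to the group's range, where chance gives about 1 in 20. Notch1 was at 16.5 CPM in control primary 5, with the next control at 7.64 CPM. Notch3 was at 3.96 CPM in control primary 3, with the next control at 0.644 CPM. Dll1 was at 4.49 CPM in control primary 7, with the next control at 2.48 CPM. Dll4 was at 4.20 CPM in KO primary 7, with the next KO primary library at 1.59 CPM. Control primary 3 and KO primary 7 are 2 of the 4 libraries with many olfactory and vomeronasal receptor counts; the part of those counts in these values was not tested.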

How the results depend on the processing

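Replicate numbers are shared between groups, but the labels do not tie them to animals, so they were not taken as pairs. Deviations of same-numbered libraries correlated at -0.00473 to 0.675 between the knockout groups. Against control primary they correlated at -0.53 to 0.27 for KO primary and at -0.43 to 0.36 for KO metastasis. The same number gave the best match for 2 of the 4 numbers between the knockout groups, and for 0 against the controls. With a replicate block 3, 0 and 2 members were called in KO primary against control primary, KO metastasis against KO primary and KO metastasis against control primary. Hes1 was not among them (edgeR adjusted p = 0.0665 in KO primary and 0.0788 in KO metastasis, against control primary), and Notch1 was, in KO primary (0.0204). Each of these fits kept only the groups compared and their shared replicate numbers, so those against the controls left out control primary 5. Without control primary 5 alone, Notch1 was also called in KO primary (edgeR adjusted p = 0.0176). The part of the block itself in the Notch1 call was not tested. The pathway list had 1 call in KO primary against control primary, all genes had 10 in KO metastasis against KO primary and 411 in KO metastasis against control primary, and Jag2 changed sign (0.16, 0.070 and 0.19 on the log2 scale in the 3 comparisons).

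In KO primary against control primary, DESeq2 called 5 members, 8 list genes and 1665 of all genes. Without high-receptor libraries there were 7 list genes and 1427 in all. With Xist as a covariate there were 342 in all, and without controls with Xist 1 member, 0 list genes and 138 in all. Leaving out 1 library gave 1 to 4 members, 1 to 4 list genes and 277 to 1032 in all. In KO metastasis against control primary, DESeq2 called 5 list genes and 1639 in all, and without high-receptor libraries 1274 were called. With Xist as a covariate there were 0 members and 329 in all, and without controls with Xist 0 members, 1 list gene and 100 in all. Leaving out 1 library gave 1 to 4 members, 1 to 4 list genes and 369 to 1199 in all. In KO metastasis against KO primary all genes gave 39 calls with DESeq2, 2 without a filter, 5 without high-receptor libraries, 0 with unscaled totals, only the 2 groups, the Xist covariate or no Xist controls, and 0 to 2 with 1 library left out.

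Changes of sign were in uncalled values. In KO primary against control primary these were Dll1 (-0.034, unscaled totals), Jag2 (0.56 with the Xist covariate and 0.65 without Xist controls) and Dll3 (0.054 without Xist controls). In KO metastasis against KO primary without high-receptor libraries they were Notch1 (0.40), Notch3 (0.27), Jag1 (0.092), Jag2 (0.29), Dll1 (-0.049), Hes5 (-0.28) and Numbl (0.13). In KO metastasis against control primary they were Dll3 without high-receptor libraries (0.20), with the Xist covariate Notch3 (-0.11), Jag2 (0.35), Dll3 (0.26), Hes5 (0.60) and Mfng (0.12), and without Xist controls Jag2 (0.51), Dll3 (0.39), Hes5 (0.68) and Mfng (0.19). With 1 library left out, ranges spanned 0 in KO primary against control primary for Jag2 (-0.74 to 0.20) and Dll1 (-0.14 to 0.29), in KO metastasis against KO primary for Notch1 (-0.32 to 0.16), Jag1 (-0.38 to 0.11), Jag2 (-0.44 to 0.49), Dll1 (-0.11 to 0.22), Dll3 (-0.36 to 0.73), Hes1 (-0.14 to 0.34), Numbl (-0.18 to 0.068) and Dner (-0.53 to 0.073), and in KO metastasis against control primary for Jag2 (-0.50 to 0.044), Dll1 (-0.085 to 0.36) and Hes5 (-1.03 to 0.26). The causes were not tested, and fits with fewer libraries also have smaller samples. Depth limits Jag2, Hes5 and Notch3 most.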
